A study of Mus musculus with 20 samples.

Results

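The type I interferon-stimulated genes examined here are 41 genes that the interferon alpha and beta receptor switches on, chosen as a list of gene symbols and found by symbol in the deposited counts. All 41 were among the 24421 genes of the files, and all 41 were among the 14030 genes with enough reads to be tested. They were measured by bulk RNA-seq in bone marrow neutrophils from 20 libraries, in 4 groups of 5, of young adult female mice. The groups were untreated wild type (WT) C57BL/6J mice, untreated *Bmal1* Mye-/- mice, IMQ-treated WT mice and IMQ-treated *Bmal1* Mye-/- mice. IMQ is imiquimod, an agonist of Toll-like receptor 7, applied as a cream to the ears over 6 weeks, after which a lupus-like disease develops. In *Bmal1* Mye-/- mice, floxed alleles of *Bmal1* (*Arntl* in the files) are combined with LysMCre, a Cre recombinase expressed from the *Lyz2* gene of myeloid cells. The WT mice were purchased and carry neither the floxed allele nor the Cre, so the allele, the Cre and the colony cannot be told apart from the loss of *Bmal1*.

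Type I interferons are secreted when a cell senses viral or self nucleic acid. They bind the receptor made of *Ifnar1* and *Ifnar2*, whose kinases *Jak1* and *Tyk2* phosphorylate STAT proteins such as *Stat2*. With *Irf9*, *Stat2* takes part in a complex that binds the interferon-stimulated response element (ISRE) in promoters, and the products restrict viruses, sense nucleic acids, edit or degrade RNA and feed back on the pathway. A raised level of such transcripts in blood cells, the interferon signature, is a well known feature of lupus, and imiquimod acts on a receptor that can start interferon production.

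Each library held between 30782166 and 92613500 reads assigned to genes. *Arntl* was at a mean of 1.35 ± 0.322 CPM (counts scaled to the library total by the TMM method; SD, n = 5) in untreated WT against 0.721 ± 0.24 in untreated *Bmal1* Mye-/-, and at 1.11 ± 0.474 against 0.702 ± 0.477 with IMQ. These ranges overlapped, and a gene count also takes reads from outside a deleted exon. The summed level of 10 neutrophil genes was 101311 to 159593 CPM in 19 libraries and 71355 in *Bmal1* Mye-/- IMQ replicate 1, which also had the highest sum of 8 monocyte genes, 1856 CPM against 135 to 665 in the others. A further pair of libraries stood apart in the interferon-stimulated genes themselves. These were WT IMQ replicate 1 and *Bmal1* Mye-/- IMQ replicate 4, and results that rest on them are given with and without them.

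In untreated mice the 41 genes covered a wide range of levels. Per kilobase of transcript, the highest were *Slfn4*, at 479 to 766 CPM per kilobase over the 10 untreated libraries, *Slfn1* at 297 to 443 and *Samd9l* at 79.2 to 121. *Slfn4* and *Slfn1* belong to the Schlafen family of myeloid and lymphoid regulators, and *Samd9l* is an antiviral protein that represses translation. The ranges of *Slfn4* and *Slfn1* did not overlap with each other or with that of *Samd9l*, while *Samd9l* overlapped with *Oas3*, the fourth, at 67.3 to 115 CPM per kilobase. At the low end, *Mx1* was at 0.376 to 1.39, *Mx2* at 0.0724 to 0.383 and *Ifi44* at 0.0102 to 0.129 CPM per kilobase. *Mx1* encodes an antiviral GTPase that C57BL/6 mice are known to lack in functional form.

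Without treatment, the genotypes did not differ detectably in any of the 41 genes. The mean over members of log2(CPM + 0.5), used here as the member level of a library, was 5.07, 5.53, 5.58, 5.66 and 5.82 in untreated WT replicates 1 to 5. In untreated *Bmal1* Mye-/- it was 5.53, 5.76, 5.58, 5.87 and 5.23. The groups overlapped almost wholly. By the quasi-likelihood test of edgeR, with Benjamini-Hochberg adjustment over all tested genes, 0 of 41 members were called, 0 had an unadjusted p under 0.05, and DESeq2 and limma called 0. The background was 0.207% of all tested genes called, and 2.19% with an unadjusted p under 0.05. The members' median log2 fold change was 0.065, against −0.0039 over all genes, with a median standard error of 0.597. That error sets the size of difference this comparison could show. Without the 2 highest IMQ libraries it was 0.245, and again 0 were called and 0 had an unadjusted p under 0.05. The 3 largest differences were in the scarcest genes, *Mx1* at 0.47 (standard error 0.577, adjusted p = 1.0), *Ifi44* at 0.31 (standard error 0.865, adjusted p = 1.0) and *Mx2* at 0.21 (standard error 0.858, adjusted p = 1.0). *Irf7*, which lies 28.055 Mb from *Arntl* on chromosome 7, and *Isg20*, 34.294 Mb from it, were at 0.093 (standard error 0.635, adjusted p = 1.0) and 0.17 (standard error 0.597, adjusted p = 1.0).

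Even untreated mice differed from each other in the whole group of genes at once. Among the untreated WT libraries, replicate 1 was the lowest for 39 of 41 members, while it was the lowest for 19.7% of all tested genes. Untreated *Bmal1* Mye-/- replicate 5 was the lowest of its group for 36 members, against 17.8% of all genes, and replicate 4 was the highest for 31, against 23.0% of all genes. After the group means were removed, the median Pearson correlation between members over the 10 untreated libraries was 0.796, and 817 of 820 pairs were positive. These correlations share libraries and their total scaling, and the median over pairs of all tested genes was −0.0026 in the same libraries. *Isg15* encodes a ubiquitin-like protein that interferon induces strongly. Its level was 13.7, 25.3, 24.6, 24.6 and 27.9 CPM in untreated WT and 21.1, 27.7, 26.5, 34.7 and 13.9 CPM in untreated *Bmal1* Mye-/-. Replicate 1 of WT and replicate 5 of *Bmal1* Mye-/- were the low ones, and the groups overlapped.

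After IMQ, the interferon-stimulated genes were high together in 1 library of each genotype. Member levels were 7.79, 5.64, 5.93, 5.48 and 5.7 in IMQ-treated WT replicates 1 to 5 and 4.36, 5.22, 4.97, 7.97 and 4.85 in IMQ-treated *Bmal1* Mye-/-. WT replicate 1 and *Bmal1* Mye-/- replicate 4 were above all 18 other libraries of the study. The other WT IMQ libraries lay within or just above the untreated range, and the other *Bmal1* Mye-/- IMQ libraries lay near or below its lower end. These are the 2 highest of the 20 libraries for 39 of 41 members, all but *Mx1* and *Trim25*, whereas they are the 2 highest for 2.16% of all tested genes.

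**Figure D1:**
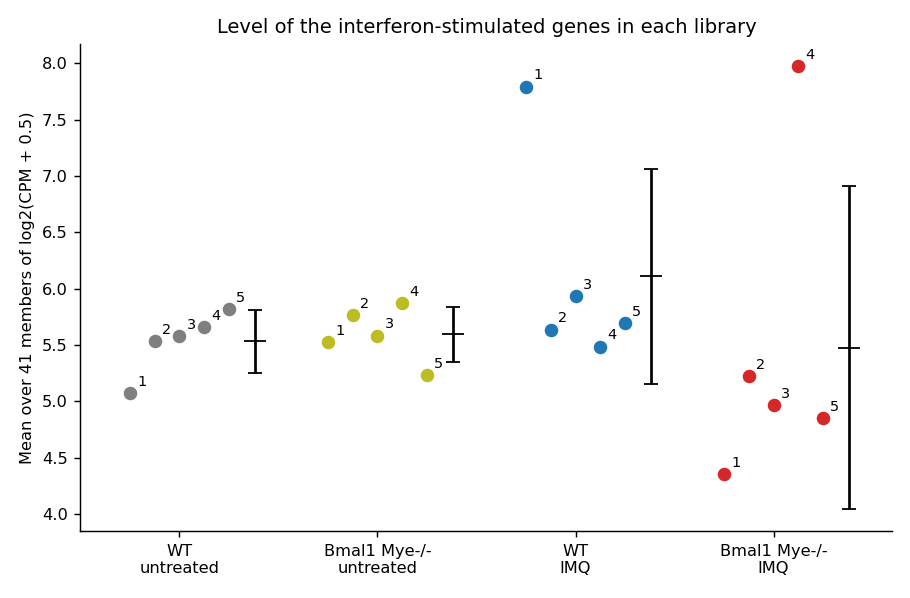
Mean over the 41 interferon-stimulated genes of log2(CPM + 0.5) in each library (vertical axis), by group, with replicate numbers beside the points and the group mean ± SD (n = 5) in black. WT IMQ replicate 1 (7.79) and *Bmal1* Mye-/- IMQ replicate 4 (7.97) stand above the other 18 libraries, which lie between 4.36 and 5.93.

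The transcription factors of the pathway showed the pattern. *Irf7*, the factor that amplifies interferon production, was at 88.8, 125, 129, 141 and 152 CPM in untreated WT and 804, 168, 148, 139 and 132 CPM with IMQ. The knockout had 127, 146, 137, 160.2 and 108 CPM untreated and 33, 81.6, 94, 683 and 77.6 CPM with IMQ. So 1 IMQ library of each genotype was far above its group, and the other 4 of the knockout were all below the lowest untreated library of that genotype. *Stat2*, which acts with *Irf9* in the factor that binds the ISRE, was at 156, 47.5, 68, 43.9 and 67.7 CPM in WT with IMQ against 46.5 to 61.1 untreated. The knockouts were at 31.6, 43, 34.4, 278 and 31.9 CPM with IMQ against 44.6 to 61.6 untreated. *Irf9*, the DNA-binding partner, had a smaller range, at 254, 114, 119, 106 and 163 CPM in WT and 47.8, 100.3, 72.1, 270.0 and 76 CPM in *Bmal1* Mye-/- with IMQ, against 97.3 to 161 over the untreated libraries. The same 2 libraries were the highest, by a smaller factor than for *Irf7*, and the other 4 knockouts were all below the untreated libraries of their genotype.

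The IFIT proteins bind foreign RNA and block its translation, and *Ifit1* and *Ifit3* were among the members farthest above their untreated levels in the high libraries. *Ifit3* was at 15.6, 34.3, 32.6, 27.7 and 41.3 CPM in untreated WT and 416, 23.2, 21.9, 12.3 and 23.7 CPM with IMQ. Its values in *Bmal1* Mye-/- were 22.3, 30.1, 33.2, 51.4 and 20.3 CPM untreated and 1.19, 5.2, 4.95, 433 and 5.22 CPM with IMQ. The 5 IMQ libraries of the knockout therefore span more than the whole range of the other 15, with 4 at the bottom and 1 at the top. *Ifit1* was at 392, 25.2, 50.1, 18.7 and 24.5 CPM in WT and 3.24, 12.9, 11.9, 459 and 10.8 CPM in *Bmal1* Mye-/- with IMQ, against 14.8 to 43.2 untreated. *Ifit2* was high in the same 2 libraries (155 and 177 CPM), but in the other 4 knockouts it was at 19.5, 12.9, 26.8 and 26.7 CPM, around its untreated range of 15.6 to 25.8. *Ifit3* shares much of its sequence with *Ifit3b*, so reads may be split between them.

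*Isg15* and its partner *Usp18*, the protease that removes *Isg15* from proteins and also damps the receptor, followed. *Isg15* was at 212, 22.1, 33.5, 32.5 and 20.5 CPM in WT and 6.95, 13, 11.6, 249 and 21.6 CPM in *Bmal1* Mye-/- with IMQ. *Usp18* was at 129, 13.7, 29.6, 11.2 and 23 CPM and 3.43, 9.89, 7.4, 201 and 5.76 CPM, against 13 to 30.7 over the untreated libraries. For *Usp18* the other 4 *Bmal1* Mye-/- libraries were all under the lowest untreated value. *Rsad2*, or viperin, an enzyme that makes a chain-terminating nucleotide, was at 826, 130.04, 192, 147 and 133 CPM and 21, 54.8, 54.4, 1019 and 99.2 CPM, against 74.7 to 192 untreated. *Bst2*, or tetherin, which holds budding virions at the cell surface, was at 72.9, 11.2, 11.3, 3.93 and 6.11 CPM and 13.1, 6.46, 6.53, 71.2 and 8.37 CPM, against 5.11 to 12.3 untreated. In *Bst2*, unlike *Usp18*, the other 8 IMQ libraries remained close to the untreated range in both genotypes.

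The oligoadenylate synthetases sense double-stranded RNA and make the messenger that activates RNase L, and the Oasl proteins are their relatives. *Oasl2* was at 1191, 342, 134, 325 and 227 CPM in WT and 47.6, 234, 139, 1059 and 61.7 CPM in *Bmal1* Mye-/- with IMQ, against 130.27 to 275 untreated. *Oas1g* was at 144, 30.7, 28.4, 17.5 and 7.93 CPM and 7.49, 14.6, 17.3, 128 and 10.5 CPM, against 3.85 to 11.5 untreated. Here WT IMQ replicates 2 to 4 and *Bmal1* Mye-/- replicates 2 and 3 were above every untreated library too. *Oas1g* has near-identical neighbours, *Oas1a* among them, so its counts depend on how shared reads were assigned. *Zbp1*, the sensor of Z-form nucleic acid that can trigger necroptosis, was at 324, 65.6, 29.3, 40.2 and 27.3 CPM and 19.3, 29, 29.9, 234 and 18 CPM, against 14.3 to 28.4 untreated. WT IMQ replicates 1 to 4 and *Bmal1* Mye-/- IMQ replicates 2 to 4 were above every untreated library. The margin was small for WT replicate 3 and for *Bmal1* Mye-/- replicates 2 and 3.

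*Mx1* and *Trim25* were the exceptions. *Mx1* was at 4.01, 1.15, 5.06, 1 and 3.2 CPM in WT and 7.86, 3.27, 1.26, 6.48 and 0.592 CPM in *Bmal1* Mye-/- with IMQ, against 1.27 to 4.71 untreated. Its highest library was *Bmal1* Mye-/- replicate 1, the library with the high monocyte markers, and it was the member whose variation followed the other 40 least, with a Pearson correlation to their mean of 0.391 over 20 libraries after removing group means. *Trim25*, the ubiquitin ligase that acts on the RNA sensor *Ddx58*, was at 182, 101, 120.4, 209.9 and 195 CPM and 77.6, 154, 114, 258 and 81.5 CPM. It was above every untreated library in *Bmal1* Mye-/- replicate 4 and not in WT replicate 1.

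**Figure D2:**
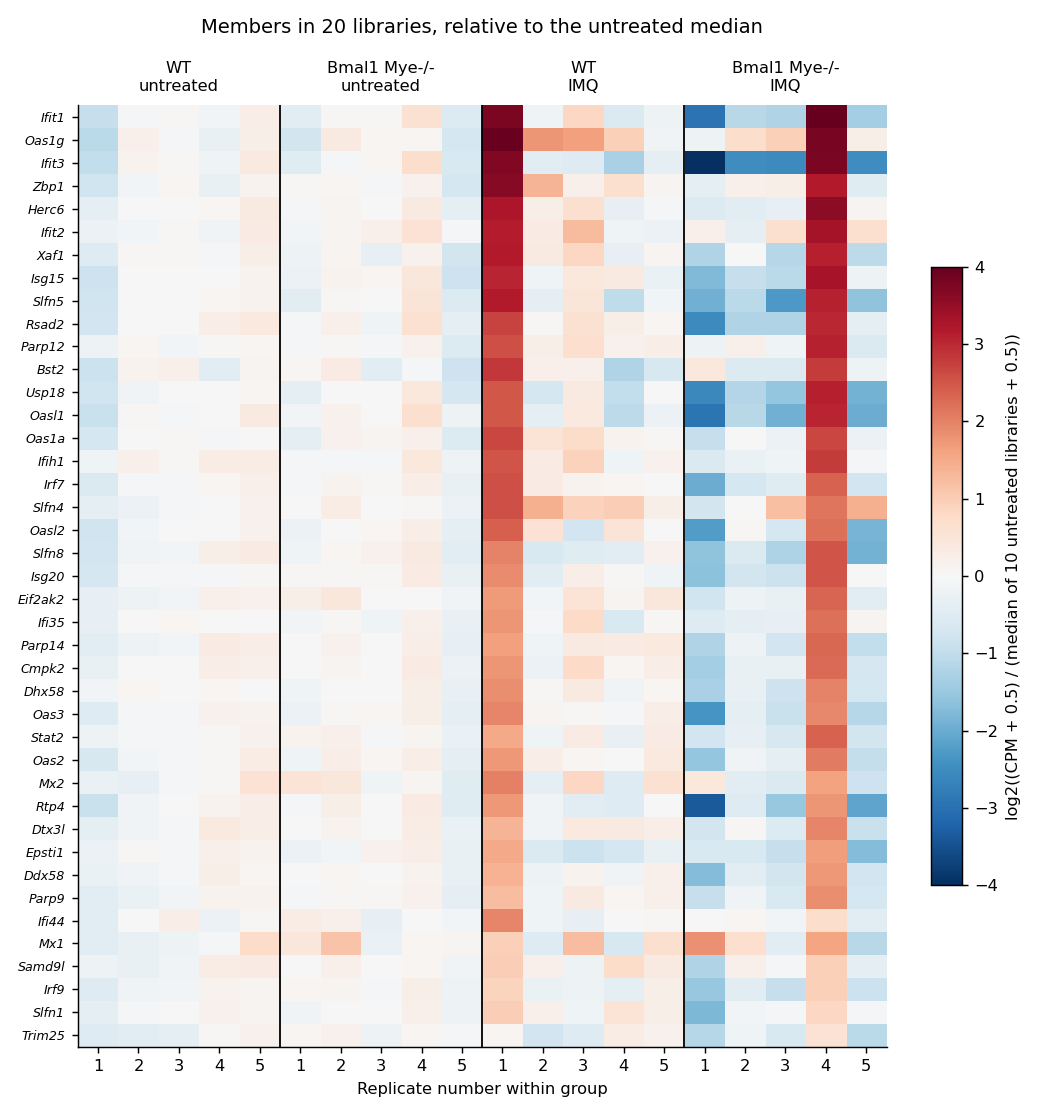
Level of each of the 41 genes (vertical axis, ordered by their ratio in the 2 highest libraries) in each of the 20 libraries (horizontal axis, by group and replicate number), as the log2 ratio to the median of the 10 untreated libraries with 0.5 CPM added, red above and blue below. WT IMQ replicate 1 and *Bmal1* Mye-/- IMQ replicate 4 are red for nearly every gene, and *Bmal1* Mye-/- IMQ replicate 1 has the lowest member level of its group (4.36).

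The 2 high libraries were alike in how far each gene was above its untreated level. Each was set against the median of the 5 untreated libraries of its own genotype, so that the comparisons share no library. The median ratio over the 41 genes was 4.98 in WT IMQ replicate 1 and 4.97 in *Bmal1* Mye-/- IMQ replicate 4. Over all tested genes, with 0.5 CPM added before the ratio, it was 0.991 and 0.988. The log2 ratios of the 41 genes had a Pearson correlation of 0.887 between the 2 libraries, which is across genes and not across mice. The same correlation over all 14030 tested genes was 0.766. In both libraries 37 members were over 2-fold and 21 were over 4-fold, by ratios without the added 0.5 CPM. With 0.5 CPM added, 0.356% of all tested genes were over 4-fold in both. By that measure *Mx2*, one of the 21, was under 4-fold in *Bmal1* Mye-/- IMQ replicate 4, at a log2 ratio of 1.496. The share of all genes over 2-fold is not given here. *Ifit1* was highest by the mean of the log2 ratios, at 14.3-fold in WT IMQ replicate 1 and 15.7-fold in *Bmal1* Mye-/- IMQ replicate 4. *Oas1g* followed at 17.3-fold in WT IMQ replicate 1 and 13.9-fold in *Bmal1* Mye-/- IMQ replicate 4. At the other end, *Irf9* was at 1.99- and 1.87-fold in these libraries in the same order, *Slfn1* at 1.96- and 1.78-fold and *Trim25* at 1.36- and 1.42-fold. Among members not described above, *Xaf1*, which promotes cell death, was at 9.17- and 10.5-fold, the exonuclease gene *Isg20* at 3.83- and 5.51-fold, *Eif2ak2* at 3.5- and 4.97-fold, *Ifi35* at 3.42- and 5.09-fold, *Parp14* at 3.39- and 4.96-fold, *Cmpk2* at 3.45- and 4.8-fold, *Oas3* at 4.04- and 3.64-fold and *Oas2* at 3.47- and 3.98-fold. Since each is 1 library, these ratios have no replicate error of their own.

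**Figure D3:**
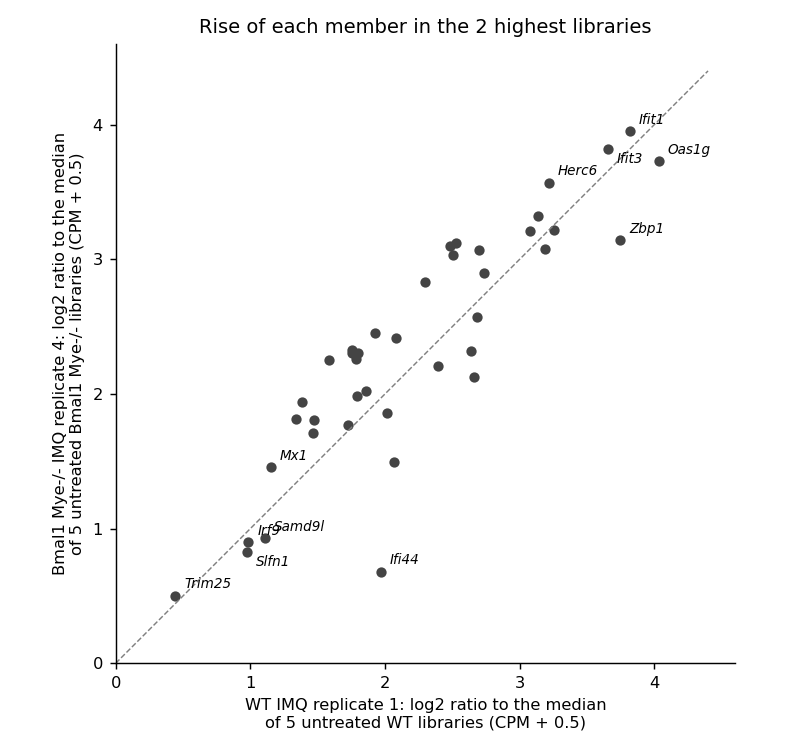
Log2 ratio of each member to the untreated median of the same genotype, with 0.5 CPM added, in WT IMQ replicate 1 (horizontal axis) and *Bmal1* Mye-/- IMQ replicate 4 (vertical axis), one point per gene, with equality as a dashed line. The 41 points run along that line (Pearson r = 0.887) from *Trim25* at the bottom to *Ifit1*, *Oas1g* and *Ifit3* at the top, with *Ifi44*, a gene of few reads, the farthest below it.

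Few members passed the test for an effect of IMQ, in which 1 high library stood against 4 others in each genotype. In WT, all 41 log2 fold changes were above 0, with a median of 0.92 against 0.027 over all genes. Of the members, 0 were called by edgeR's quasi-likelihood test, against 3.95% of all tested genes, while 5 had an unadjusted p under 0.05 against 22.3%, and limma called 0. DESeq2 called 3 (*Oas1g*, *Slfn4* and *Zbp1*), against 7.14% of the genes it tested. The largest were *Oas1g* at 2.52 (standard error 0.77, adjusted p = 0.0662), *Zbp1* at 2.104 (standard error 0.73, adjusted p = 0.0963) and *Ifit1* at 1.95 (standard error 1.08, adjusted p = 0.302). Without WT IMQ replicate 1 the median was 0.21 and 0 were called, with *Oas1g* at 1.41 (adjusted p = 0.264), *Zbp1* at 0.84 (adjusted p = 0.49) and *Ifit1* at 0.16 (adjusted p = 0.957) by edgeR. Without WT IMQ replicate 5, whose levels were the lowest for *Oas1g* and *Zbp1*, 3 were called, *Oas1g*, *Slfn4* and *Zbp1*, against 13.9% of all tested genes.

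In *Bmal1* Mye-/-, 38 members had a log2 fold change above 0 under IMQ, with a median of 0.58 against 0.024 over all genes. *Oas1g* was the only member called, at 2.15 (standard error 0.761, adjusted p = 0.0476) by edgeR's quasi-likelihood test, while 23.5% of all tested genes were called. With a block for the replicate number over all 4 groups, *Oas1g* was at 1.67 with an adjusted p of 0.139 by the same test. The count was then 0, with 1 unadjusted p under 0.05, and the median was 0.085. On limma's log2(CPM + 0.1) scale the median was −0.066 and 0 were called, with 2 unadjusted p under 0.05, and DESeq2 called 2 (*Oas1g* and *Slfn4*), against 19.8% of the genes it tested. The count was also 0 when IMQ replicate 5, or any 1 of the 5 untreated libraries, was left out. The other large values were *Ifit1* at 1.82 (standard error 1.07, adjusted p = 0.212) and *Herc6*, an E3 ligase for *Isg15*, at 1.60 (standard error 0.782, adjusted p = 0.134). An unadjusted p under 0.05 was found for 4 members, against 39.3% of all tested genes. With all libraries in edgeR, in neither genotype was the share of members called above that of all genes. No member separated all 5 IMQ libraries of *Bmal1* Mye-/- from all 5 untreated ones, against 20.1% of all tested genes.

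When *Bmal1* Mye-/- IMQ replicate 4 was left out, the knockout comparison changed sign. The median became −0.67, and 8 members were called lower with IMQ (*Ddx58*, *Ifit3*, *Irf9*, *Oasl1*, *Rtp4*, *Slfn8*, *Trim25* and *Usp18*), against 9.3% of all tested genes called lower. With WT IMQ replicate 1 left out as well, which narrows the spread that all groups share, 23 of 41 members were called lower and 0 higher, against 9.03% of all tested genes called lower. The 2 libraries were left out for their values of these same genes, so these counts describe the remaining libraries and are not an independent test. The count also used *Bmal1* Mye-/- IMQ replicate 1, whose markers differ, and without it 15 were called lower and 1, *Slfn4*, higher, against 3.55% of all tested genes lower.

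By their levels, 15 members were lower in all 4 remaining *Bmal1* Mye-/- IMQ libraries than in every untreated *Bmal1* Mye-/- library, against 12.7% of all tested genes. These included the signal transducers *Stat2*, *Irf9* and *Irf7*, the RNA sensor *Ddx58* (RIG-I), the kinase *Eif2ak2* (PKR) that stops translation, the nucleotide kinase *Cmpk2*, and *Ifit1*, *Ifit3*, *Oas3*, *Oasl1*, *Usp18*, *Rtp4*, *Slfn5*, *Slfn8* and *Epsti1*. Replicate 4 was left out for its high values of these same genes, which favours members over other genes in the count of 15. That count and the p-values that follow describe the remaining libraries and are not an independent test. With both high libraries left out, the largest fall was that of *Ifit3*, at −2.90 (standard error 0.408, adjusted p = 0.00233) by edgeR's quasi-likelihood test. *Oasl1*, which restrains the translation of *Irf7*, was next at −2.02 (standard error 0.349, adjusted p = 0.00505), and then *Usp18* at −1.69 (standard error 0.327, adjusted p = 0.00626). *Rtp4* was at 9.3, 68.9, 34.6 and 22.7 CPM in these 4 libraries against 95.1, 116, 99.6, 124 and 70.5 CPM untreated. *Slfn5* was at 21.5, 39, 16.5 and 27.1 CPM against 61.5, 85.9, 84, 118 and 57.2 CPM. In both genes the 4 IMQ libraries were below all 5 untreated ones, and replicate 2 was the nearest.

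Among the RNA sensors *Ddx58*, *Ifih1* and *Dhx58*, which share a helicase fold, *Ddx58* was at 37.7, 93.1, 77.2 and 74.2 CPM in the 4 remaining libraries against 126, 136, 129.92, 141 and 104 CPM untreated. *Dhx58* was at 21.1, 43.3, 29.4 and 32.1 CPM against 47.2, 51.9, 53.3, 62.3 and 42.7 CPM, with replicate 2 inside the untreated range. *Ifih1* (MDA5) was at 21.8, 27.2, 29.1 and 31.6 CPM against 28.4 to 43.9 CPM untreated, and was not called, at −0.26 (standard error 0.186, adjusted p = 0.294). The sensors therefore did not all lie below the untreated libraries. *Parp9* and *Dtx3l* form a complex of an ADP-ribosyltransferase and a ubiquitin ligase. The genes overlap for a short stretch at their starts on opposite strands, where reads cannot be told apart without strand. *Parp9* was called lower at −0.54 (standard error 0.166, adjusted p = 0.0284), and *Dtx3l* was at −0.52 (standard error 0.19, adjusted p = 0.0526).

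**Figure D4:**
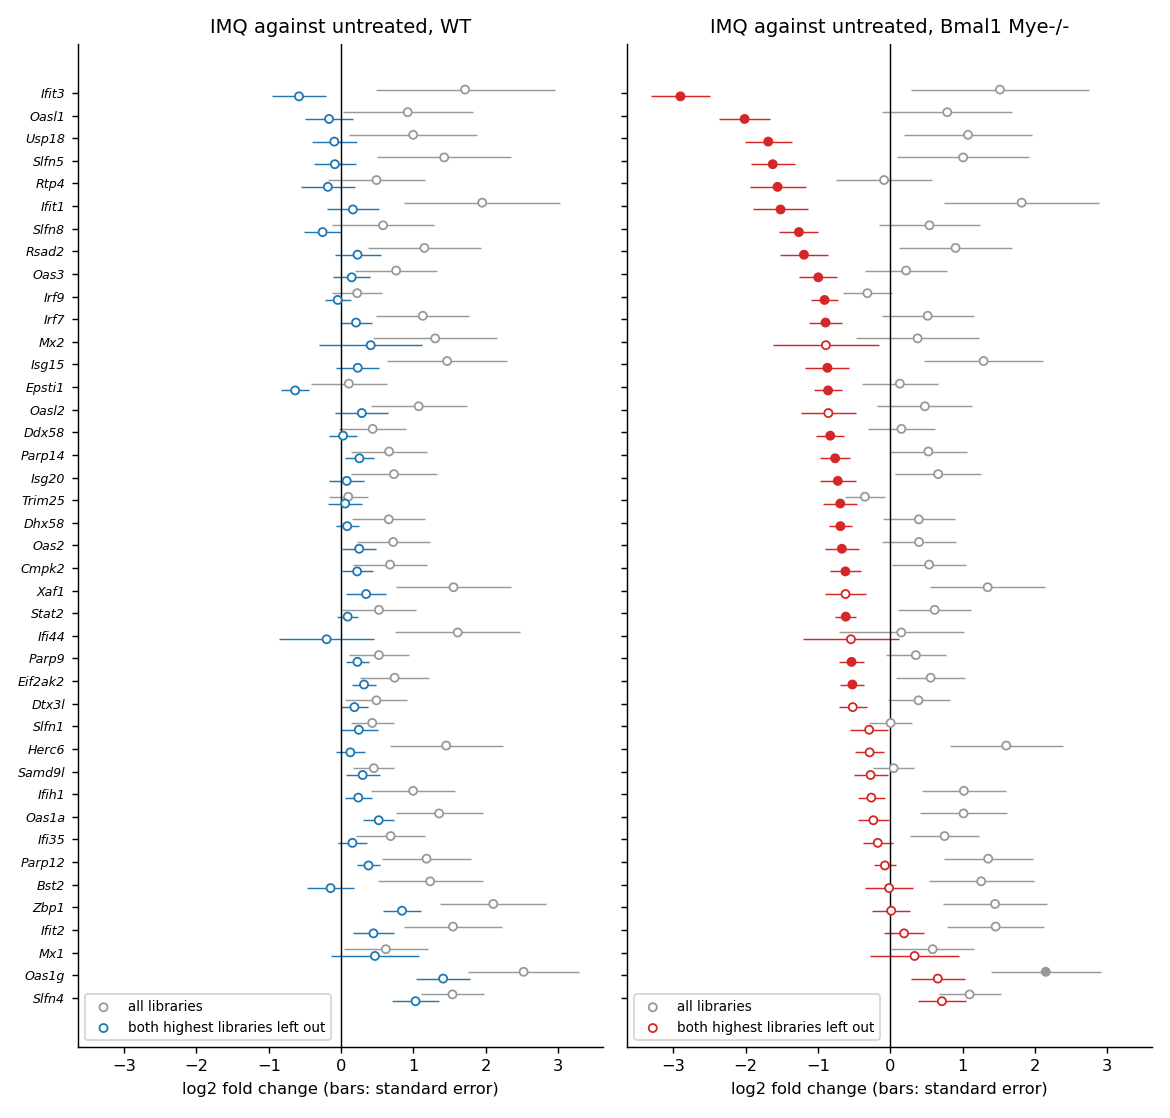
Log2 fold change of IMQ against untreated for the 41 members in WT (left) and *Bmal1* Mye-/- (right), from all libraries (grey) and with both highest libraries left out (colour), with standard errors as bars and filled points for an adjusted p under 0.05. In *Bmal1* Mye-/- the median moves from 0.58 to −0.67 and 23 coloured points are filled, all below 0, while in WT the coloured points centre on 0.21 and 0 are filled.

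In WT without replicate 1, most members lay near their untreated levels. With both high libraries left out, 31 of 41 log2 fold changes were above 0. By edgeR's quasi-likelihood test 0 members were called, against 117 of 14278 tested genes. An unadjusted p under 0.05 was found for 6 members, against 2647 of all tested genes. *Ifit3* was at −0.58 (standard error 0.37, adjusted p = 0.43) and *Usp18* at −0.094 (standard error 0.311, adjusted p = 0.91). *Slfn4* and *Parp12*, an antiviral ADP-ribosyltransferase, were the 2 of 41 members for which all 5 IMQ libraries of WT lay above all 5 untreated ones, against 6.43% of all tested genes that separated in either direction. *Parp12* was at 23.4, 28.7, 25.4, 28.1 and 28.6 CPM untreated and 165, 32, 43.6, 31 and 32.8 CPM with IMQ. *Epsti1* went the other way in the 4 remaining WT libraries, at 28.8, 23.7, 26.6 and 34.9 CPM with IMQ against 37, 44.6, 42.3, 49.7 and 47.6 CPM untreated.

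*Slfn4* was above every untreated library of its genotype in 8 of the 10 IMQ libraries, against at most 7 for any other member. It was at 1894, 2104, 2317, 2463 and 2742 CPM in untreated WT and 14646, 6501, 4628, 4806 and 2899 CPM with IMQ. Its values in *Bmal1* Mye-/- were 2459.8, 3031, 2443, 2550.1 and 2091 CPM untreated and 1469.6, 2445, 5657, 10721 and 6577 CPM with IMQ. Replicates 3 and 5 of the knockout, which were low for *Ifit3*, were thus above all untreated libraries for *Slfn4*, and replicate 1 was below them. In the fit of all libraries *Slfn4* was at 1.54 (standard error 0.434, adjusted p = 0.0512) in WT and 1.10 (standard error 0.429, adjusted p = 0.068) in *Bmal1* Mye-/-, by edgeR's quasi-likelihood test, and DESeq2 called it in both. With all 3 libraries left out it was called in both, at 1.02 (standard error 0.246, adjusted p = 0.0402) and 0.97 (standard error 0.263, adjusted p = 0.0302), and in WT it was then the only member called, against 2.4% of all tested genes.

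With IMQ, no member was shown to differ between the genotypes when all libraries were used. By edgeR's quasi-likelihood test 0 of 41 were called, against 0.292% of all tested genes, and 0 had an unadjusted p under 0.05, against 19.9%. DESeq2 and limma also called 0. The median log2 fold change was −0.15, against 0.034 over all genes. The largest values were *Ifi44* at −1.15 (standard error 0.853, adjusted p = 0.394), *Mx2* at −0.71 (standard error 0.845, adjusted p = 0.595) and *Zbp1* at −0.56 (standard error 0.702, adjusted p = 0.617), and the first pair of these had few reads. The result depended on which high library was present. Without *Bmal1* Mye-/- replicate 4 the median was −1.40 and 18 members were called lower in the knockout, against 0.77% of all tested genes called lower. Without WT replicate 1 it was 0.58 and 0 were called.

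With both high libraries left out, 39 of 41 members were lower in *Bmal1* Mye-/- than in WT under IMQ. The median was −0.75, against 0.06 over all genes. Members vary together, so these are not 39 independent genes. Both libraries were left out after their values of these same genes were seen. The counts and p-values here therefore describe the remaining libraries and are not an independent test. *Dhx58*, *Ifit3* and *Slfn5* were called, against 0.182% of all tested genes called lower. An unadjusted p under 0.05 was found for 30 members, against 3285 of 14278 tested genes in either direction. *Ifit3* was at 23.2, 21.9, 12.3 and 23.7 CPM in the 4 WT libraries and 1.19, 5.2, 4.95 and 5.22 CPM in the 4 knockouts, which do not overlap, with a fitted value of −2.29 (standard error 0.409, adjusted p = 0.0197) in log2 units by edgeR's quasi-likelihood test. *Slfn5* was at 64.8, 116, 40.8 and 76.5 CPM and 21.5, 39, 16.5 and 27.1 CPM, at −1.51 (standard error 0.312, adjusted p = 0.0461). *Dhx58* was at 54.8, 68.4, 47.7 and 56 CPM and 21.1, 43.3, 29.4 and 32.1 CPM, at −0.85 (standard error 0.167, adjusted p = 0.0382). Without *Bmal1* Mye-/- IMQ replicate 1 as well, *Ifit3* alone was called, at −1.97 (standard error 0.34, adjusted p = 0.0187).

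The interaction, which asks whether IMQ acted differently in the genotypes, was called for 0 of 41 members by edgeR's quasi-likelihood test, by DESeq2 and by limma, and 0 had an unadjusted p under 0.05. The background was 0 of 14030 genes called and 5.14% with an unadjusted p under 0.05. The largest were *Ifi44* at −1.46 (standard error 1.22, adjusted p = 0.651), *Mx2* at −0.92 (standard error 1.2, adjusted p = 0.742) and *Zbp1* at −0.66 (standard error 0.994, adjusted p = 0.776). With both high libraries left out, 0 were called, 27 had an unadjusted p under 0.05 against 8.19% of all tested genes, and the median was −0.83. So the lower level seen in the 4 remaining knockouts was not shown to differ from the response of the 4 remaining WT mice.

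The makeup of the samples differed between the IMQ libraries, and its values are given here beside these results, since fewer cells of a type and less RNA per cell cannot be told apart in bulk samples. The sum of 10 genes of late neutrophils was 18736 to 24628 CPM over the untreated libraries. It was 18999, 17395, 6079.7, 22378 and 22843 CPM in WT with IMQ and 4226, 16955, 10633, 18264 and 8425 CPM in *Bmal1* Mye-/- with IMQ. The 2 libraries with the high member levels were within or just under the untreated range, while 3 of the other 4 knockouts were well below it. The sum of the 10 neutrophil genes was the highest of its IMQ group in each of these 2 libraries. It was 159593 CPM in WT IMQ replicate 1 and 148984 in *Bmal1* Mye-/- IMQ replicate 4, against 125992 to 148753 untreated. WT replicate 3 was also low in these markers and had the highest member level of the remaining WT libraries. The part of neutrophil maturity in the low member levels was not tested.

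Markers of other cells were not higher in the 2 high libraries than in the rest. The 8 plasmacytoid dendritic cell markers, the cells known for producing the most interferon, summed to 6.11 and 8.68 CPM in them and to 5.73 to 18.5 in the other 18. The 8 monocyte markers summed to 191 and 287 CPM, inside the range of 135 to 1856 in the others. The 8 macrophage markers, at 42.1 and 36.6 CPM, were below the 43.5 to 96.6 of the others. All 8 markers of each of these 3 lists were in the files. The sums of 8 B lineage and 7 T and NK cell markers were at most 6.36 and 5.01 CPM in the pair.

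In the other direction, 3 further lists were lowest, within the IMQ-treated *Bmal1* Mye-/- group, in the library with the high member level. The 8 early neutrophil markers, genes of immature cells, summed to 1990.3, 825, 1351, 439 and 651 CPM in *Bmal1* Mye-/- IMQ replicates 1 to 5, against 216 to 919 in WT with IMQ and 323 to 1382 untreated. The 6 eosinophil markers summed to 93.7, 122, 209.7, 40.6 and 197 CPM, against 21.2 to 41.6 and 36.9 to 140.0. The 6 basophil and mast cell markers summed to 18.4, 16.4, 7.53, 3.32 and 11.2 CPM, against 3.01 to 4.69 and 2.39 to 16.4. In the same order of lists, the other high library, WT IMQ replicate 1, was at 405, 32.2 and 3.7 CPM. It was not the lowest of its group in any of them. All markers of these 3 lists were in the files. In the last pair of lists the other 4 knockouts were above every WT IMQ library, and replicate 4 was inside their range. The part of these cells in the member levels was not tested.

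**Figure D5:**
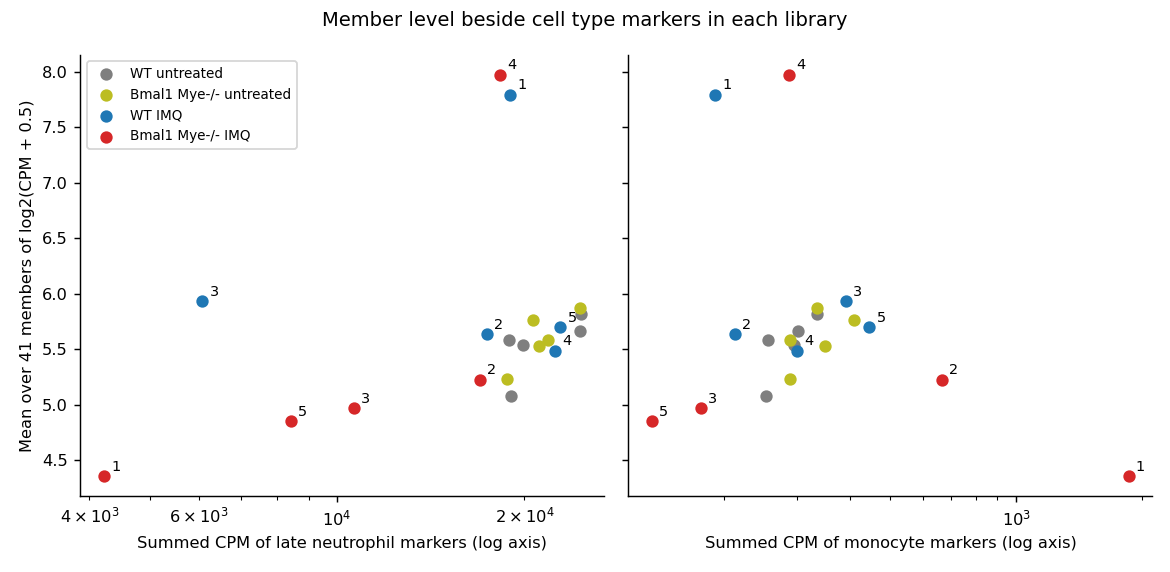
Member level of each library (vertical axis) against the summed CPM of 10 late neutrophil markers (left, log axis) and 8 monocyte markers (right, log axis), coloured by group, with replicate numbers on the IMQ libraries. The 2 high libraries lie at 18999 and 18264 CPM of late neutrophil markers, beside untreated libraries, and *Bmal1* Mye-/- IMQ replicate 1, with the lowest member level, has the fewest late neutrophil and the most monocyte reads.

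The interferon genes themselves were hardly read in any library. The 9 type I interferon genes listed had 12 reads in all over the 20 libraries, at most 3 in any library, with 0 in WT IMQ replicate 1 and 0 in *Bmal1* Mye-/- IMQ replicate 4. None of the 12 ligand genes had enough reads to be tested. Bulk RNA of neutrophils shows only what these cells transcribed at the time, so interferon made elsewhere or earlier was not measured.

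The receptor chain *Ifnar1* and the kinases did not share the pattern. *Socs1*, a feedback inhibitor of the receptor's kinases, did have this pair of libraries on top, at 11.7 and 16.8 CPM against 2.97 to 10.7 in the other 18. *Ifnar1*, a chain of the receptor, was at 103, 106, 60.1, 141 and 143 CPM in WT and 71.6, 94.9, 74.1, 102 and 67.8 CPM in *Bmal1* Mye-/- with IMQ, against 105 to 126 and 120.3 to 136 CPM untreated. All 5 knockouts fell below their untreated libraries, the high library included. *Ifnar1* was called lower with IMQ in *Bmal1* Mye-/- at −0.65 (standard error 0.174, adjusted p = 0.0159), as were *Jak1* at −0.60 (standard error 0.213, adjusted p = 0.047) and *Socs3*, an inhibitor of cytokine receptors, at −1.36 (standard error 0.385, adjusted p = 0.0197), by edgeR's quasi-likelihood test. That is 3 of the 10 genes, against 9.04% of all tested genes called lower. In WT 0 of the 10 receptor and signal transducer genes were called and 0 had an unadjusted p under 0.05, and *Ifnar1* was at −0.048 (standard error 0.173, adjusted p = 0.905). Its interaction did not pass, at −0.60 (standard error 0.245, adjusted p = 0.64). Without *Bmal1* Mye-/- IMQ replicate 1, *Ifnar1* alone of the 3 was called.

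Of 20 sensors and adaptors that lead to interferon, 4 rose with IMQ in *Bmal1* Mye-/- and 0 fell by edgeR's quasi-likelihood test, against 14.4% of all tested genes called higher and 9.04% lower. DESeq2 called the same 4 and also *Irf3*, lower, limma called *Mb21d1* and *Tmem173*, and with both high libraries left out edgeR called *Irf1* lower beside the 4. *Mb21d1*, the DNA sensor cGAS, was at 6.74, 10, 8.92, 5.05 and 7.73 CPM untreated and 28.5, 12.8, 18.8, 26.8 and 23.2 CPM with IMQ, and was called at 1.52 (standard error 0.319, adjusted p = 0.00669) by edgeR's quasi-likelihood test. All 5 IMQ libraries were above the untreated ones. Its adaptor *Tmem173* (STING) was called at 1.41 (standard error 0.362, adjusted p = 0.0133), with its highest level, 47 CPM, in replicate 1. *Irf8* was called at 1.62 (standard error 0.552, adjusted p = 0.0413), with 133 CPM in that library and 8.29 to 46.1 in the other 19. With the replicate block *Irf8* was not called, at 1.25 (adjusted p = 0.104). Replicate 1 is the library with the high monocyte markers, and *Irf8*, a factor of monocytes and dendritic cells, is itself in that marker list. The part of monocytes in its call was not tested. The kinase *Ikbke* was called at 0.85 (standard error 0.263, adjusted p = 0.0283). Without that library the count was 2, *Mb21d1* and *Tmem173*. In WT 0 of the 20 were called by edgeR, 1 (*Irf3*, lower) by DESeq2 and 0 by limma. In edgeR 6 had an unadjusted p under 0.05, against 22.3% of all tested genes. *Tlr7*, the receptor of imiquimod, was at 17.8 to 36.9 CPM untreated and 18.8 to 50.3 CPM with IMQ.

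A further 41 interferon-stimulated genes, outside the list examined here, shared the pattern in part. For 27 of the 41 the same pair of libraries was the highest of the 20, against 2.16% of all tested genes. *Ifit3b* was at 182 and 219 CPM in the pair and 0.597 to 30.9 in the others, and *Trex1*, the DNase that removes cytosolic DNA, at 118 and 105 CPM against 9.1 to 31.1. With IMQ in WT, 2 of these genes were called higher and 0 lower by edgeR's quasi-likelihood test, against 2.34% of all tested genes called higher. Both encode interferon-induced transmembrane proteins, *Ifitm2* at 0.67 (standard error 0.154, adjusted p = 0.0259) and *Ifitm6* at 0.86 (standard error 0.202, adjusted p = 0.0275). *Ifitm6* was at 2211, 2449, 2343, 1700.1 and 1326 CPM with IMQ against 983 to 1263 untreated, so all 5 libraries were above the untreated ones and replicate 1 was not the highest. In *Bmal1* Mye-/- 1 was called higher, *Ms4a4c* at 1.87 (standard error 0.53, adjusted p = 0.0199), which was at 61.5, 18.8, 5.56, 17.2 and 3.54 CPM with IMQ. Without *Bmal1* Mye-/- IMQ replicate 1, where it was highest, *Ms4a4c* was not called and *Ifitm6* was. The pair was the highest for 27 of the 41, so leaving it out favours calls of lower with IMQ. Counts below without the pair describe the remaining libraries and are not an independent test. With both high libraries left out, 11 of the 41 were called lower with IMQ in *Bmal1* Mye-/-, among them *Ifit3b*, the RNA-editing enzyme *Adar*, *Oas1b* and *Oas1c*, and 1 higher, *Ms4a4c*, against 9.03% of all tested genes called lower. In WT 0 were then called and 3 had an unadjusted p under 0.05, against 117 and 2647 of 14278 tested genes. Between the genotypes, with all libraries, 0 of the 41 were called by edgeR, without IMQ (1 unadjusted p under 0.05) or with it (3 unadjusted), while DESeq2 and limma called 1 with IMQ, *Trim34a*. Leaving out both high libraries, edgeR called 6 of them lower in *Bmal1* Mye-/- with IMQ (*Adar*, *Ifit1bl1*, *Ifit3b*, *Oas1c*, *Trim21* and *Trim34a*), against 0.182% of all tested genes called lower. In the same fit *Trim34a* alone was called lower untreated, against 0.105%.

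The promoters of the members were searched for the binding sequences of the interferon pathway. RefSeq promoters of the GRCm38.p6 build, 250 bases before to 50 after a gene's start, were at hand for 32 of the 41 genes, in 37 promoters. The ISRE core was written as GAAANNGAAA and searched on both strands. It was found in 14 of the 32 genes and in 40.5% of their promoters, against 3.44% of all 32851 promoters in the table and 3.08% of those of the tested genes. For 6 of the genes it occurred more than once, overlapping copies included. The core of the gamma-activated site (GAS), another element of interferon responses, was written as TTCNNNGAA, which reads the same on both strands, and was found in 6 of the 32 genes, in 16.2% of promoters against 8.3% of all. An ISRE and a GAS core overlapped in *Bst2*. These are matches of letters in a window, and no binding was measured.

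The stretches before the start that hold the core are shown for the 8 genes with a core upstream of the start with the highest ratios in the 2 high libraries, as the letters through which the pathway's factor is known to act. They are written 5′ to 3′ on the gene's strand, with every ISRE core in capitals.
Ifit1: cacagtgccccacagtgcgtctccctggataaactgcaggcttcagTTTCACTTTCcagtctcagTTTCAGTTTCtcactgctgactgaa
Oas1g: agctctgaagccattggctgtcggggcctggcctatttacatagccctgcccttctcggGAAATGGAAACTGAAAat
Ifit3: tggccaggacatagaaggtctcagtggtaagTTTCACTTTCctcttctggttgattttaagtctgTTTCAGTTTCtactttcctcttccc
Isg15: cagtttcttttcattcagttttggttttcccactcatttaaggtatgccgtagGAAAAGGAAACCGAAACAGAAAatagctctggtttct
Slfn5: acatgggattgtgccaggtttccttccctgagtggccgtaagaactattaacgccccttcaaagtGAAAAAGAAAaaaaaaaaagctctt
Rsad2: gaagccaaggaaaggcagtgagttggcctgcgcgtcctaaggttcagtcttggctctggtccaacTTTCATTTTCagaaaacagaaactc
Bst2: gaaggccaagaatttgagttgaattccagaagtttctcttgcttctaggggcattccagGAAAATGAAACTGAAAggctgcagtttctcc
Oas1a: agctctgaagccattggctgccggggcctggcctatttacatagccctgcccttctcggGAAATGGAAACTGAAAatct
In order, they lie at chr19:34640739-34640828 (plus strand), chr5:120887614-120887690 (minus), chr19:34583342-34583431 (plus), chr4:156200860-156200949 (minus), chr11:82951882-82951971 (plus), chr12:26456548-26456637 (minus), chr8:71537572-71537661 (minus) and chr5:120907526-120907604 (minus). *Ifit1* and *Ifit3* each hold a pair of separate cores, and in *Isg15* the capitals are 3 overlapping cores that make one run. The run in *Oas1g* and *Oas1a* is a pair of overlapping cores, and 2 and 4 bases lie between its end and the start.

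Genes without a core in the window also stood high in the 2 libraries. Among the 32 genes, the mean log2 ratio of the 2 high libraries to their untreated medians had a median of 2.72 in the 14 with a core, ranging from 1.59 to 3.89, and of 2.11 in the 18 without, ranging from 0.47 to 3.39. Those ranges overlapped widely. *Herc6*, *Ifit2* and *Xaf1* had no core in the window and were among the members with the highest mean log2 ratios, at 3.39, 3.24 and 3.23. *Trim25*, with 0 cores, had the lowest, at 0.47, and the 250 bases before its start (chr11:88999153-88999402, plus strand) are given for comparison.
Trim25: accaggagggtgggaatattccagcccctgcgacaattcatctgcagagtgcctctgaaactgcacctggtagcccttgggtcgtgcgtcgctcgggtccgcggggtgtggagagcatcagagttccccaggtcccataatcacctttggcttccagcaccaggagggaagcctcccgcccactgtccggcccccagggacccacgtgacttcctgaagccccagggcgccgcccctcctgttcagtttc
A core outside the window, or one with other letters, would not have been found.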

How the data were processed

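Bone marrow neutrophils were isolated by negative selection and their poly(A) RNA was sequenced. Each deposited file holds the authors' raw read count per gene of 1 library. The submitters' processing notes name bcl2fastq, STAR 2.7.8a, HTSeq 2.0.1 and mm10, while the study's methods name TopHat and RPKM from Partek. The annotation and strand setting are not given in the sources used here. Of all reads, 51.9 to 57.8% lay on no gene and were left out. A deposited table that joins these counts was not used.

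Groups came from the sample labels, 5 libraries each, which the labels number but do not tie to litters or days, so p-values measure the spread between these samples. The counts of the 24421 genes were fitted with edgeR 4.0.16 in R 4.3.3 (filterByExpr, TMM, 1 model with the 4 groups, quasi-likelihood test), with Benjamini-Hochberg adjustment over the 14030 genes kept and a threshold of 0.05. CPM values are TMM-scaled, and levels between genes are per kilobase of transcript. The scripts were tested on simulated data. Alternatives were DESeq2 1.42.0, limma 3.58.1 on log2(CPM + 0.1), RLE factors, no filter or at least 10 counts in every library, the compared groups alone, thinned counts, each library left out, and a block for the replicate number. Over pairs with the same number, deviations from the group means correlated at 0.128 to 0.426 between untreated and IMQ *Bmal1* Mye-/- in 5 of 5 pairs. For 3 of the 5 untreated libraries, the IMQ library with the same number was the most correlated one. The main fits are unpaired, and the block, fitted over all 4 groups, is given beside that comparison. For the other comparisons at least 1 pair was under 0.1. Fits without the 2 highest libraries, and without *Bmal1* Mye-/- IMQ replicate 1, were added after seeing the data.

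The members, the pathway lists and the markers were chosen with earlier results of these data known. Named members were those called, the 3 with the largest fold change in each comparison, the 3 with the highest level per kilobase and a panel of 12. From the other lists called genes were named. Further genes with values were chosen after their values were seen. The values of 1 gene of the receptor and signal transducer list are not reported here.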

Additional observations from a re-analysis of the deposited data

Results flagged for a closer look

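A library was taken as standing apart where its gap to the nearest other library, divided by the range of its group of 5, was above Dixon's critical value of 0.71. Chance passes this value in about 1 in 20 groups when values are normally distributed. The member level stood apart upwards in WT IMQ replicate 1, with a ratio of 0.806, and in *Bmal1* Mye-/- IMQ replicate 4, with 0.76. Of the 41 members, 32 stood apart in the first of these libraries and 34 in the second by their CPM, against 6 in untreated WT and 2 in untreated *Bmal1* Mye-/-. Members vary together, so these are not counts of independent genes, and the share of all tested genes that stood apart is not given here.

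Among the panel of 12 genes the ratios in WT IMQ replicate 1 were 0.947 for *Irf7*, 0.784 for *Stat2*, 0.932 for *Isg15*, 0.844 for *Usp18*, 0.916 for *Ifit1* and 0.972 for *Ifit3*. In the same library they were 0.911 for *Rsad2*, 0.803 for *Oasl2*, 0.871 for *Zbp1* and 0.893 for *Bst2*. In *Bmal1* Mye-/- IMQ replicate 4 the ratios were 0.906 for *Irf7*, 0.764 for *Irf9*, 0.954 for *Stat2*, 0.939 for *Isg15*, 0.967 for *Usp18* and 0.979 for *Ifit1*. For *Ifit3* it was 0.991 there, for *Rsad2* 0.922, for *Oasl2* 0.816, for *Zbp1* 0.945 and for *Bst2* 0.898. *Irf9* in WT and *Mx1* in both genotypes did not stand apart with IMQ.

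Without treatment, *Isg15* stood apart downwards in WT replicate 1 (0.768) and *Mx1* upwards in WT replicate 5 (0.79). *Zbp1* stood apart downwards in untreated *Bmal1* Mye-/- replicate 5 (0.711), the library with the lowest member level of its group. The cause of the high levels was not tested, and the labels give nothing that sets these mice apart from the others of their group.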

How the results depend on the processing

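The direction of the IMQ effect on these genes in *Bmal1* Mye-/- rested on 1 library. Leaving out each library in turn, the members called for IMQ ranged from 0 to 8 in *Bmal1* Mye-/- (8 lower without replicate 4) and from 0 to 3 in WT (3 higher without replicate 5). Their medians ranged from −0.67 to 0.82 and from 0.21 to 1.15. For *Bmal1* Mye-/- against WT the calls were 0 in every such fit untreated, with medians from −0.074 to 0.13, and from 0 to 18 with IMQ, from −1.40 to 0.58, the ends being without *Bmal1* Mye-/- replicate 4 and WT replicate 1. The interaction had 0 calls in every such fit and medians from −1.42 to 0.52. With IMQ in WT, *Oas1g* ranged from 1.41 to 2.78, *Zbp1* from 0.84 to 2.33 and *Ifit1* from 0.16 to 2.20, each lowest without replicate 1. With IMQ in *Bmal1* Mye-/-, *Ifit1* ranged from −1.52 to 2.15, *Herc6* from −0.29 to 1.88 and *Oas1g* from 0.66 to 2.42. In the genotype comparison with IMQ, *Ifi44* ranged from −1.86 to 0.67, *Mx2* from −1.99 to 0.18 and *Zbp1* from −1.999 to 0.71, and in the interaction from −2.15 to 0.38, from −2.18 to −0.0093 and from −2.08 to 0.63. Untreated, *Mx2* ranged from −0.032 to 0.58. DESeq2 called 3 members for IMQ in WT and 2 in *Bmal1* Mye-/-. In *Bmal1* Mye-/- 0 were called with the 2 groups alone, with limma, with no filter and with the replicate block. With both high libraries left out, 0 were called in WT (median 0.21), 23 in *Bmal1* Mye-/- (−0.67) and 3 between the genotypes with IMQ, and without *Bmal1* Mye-/- IMQ replicate 1 as well 1 (0.20), 16 (−0.58) and 1. *Ifit1* with IMQ in *Bmal1* Mye-/- was −0.39 in limma, −1.52 without both and −1.24 without all 3, and *Herc6* was −0.29 and −0.21 in the last pair of fits. With the replicate block, *Ifi44* untreated was −0.125, and the block changed no call in the other 4 comparisons, where its medians were 0.74 for IMQ in WT, −0.0050 untreated, −0.58 with IMQ and −0.55 for the interaction. RLE factors, a minimum of 10 counts in every library and thinned counts kept every count of calls within 1.5 times. Leaving out libraries changes the samples and the shared spread, and the cause of the other changes was not tested. Depth limits *Mx2* and *Ifi44*, which fell to 3 and 2 counts in their lowest libraries, while the other 39 members had at least 10 counts in every library.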
